A study of Mus musculus with 27 samples.

Results

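The unfolded protein response and the endoplasmic reticulum (ER) folding machinery were examined in myeloid cells sorted from the inflamed mouse colon. The set was a fixed list of 38 symbols for ER chaperones, calnexin cycle lectins, disulfide and proline isomerases, ER-associated degradation (ERAD) factors, transcription factors of the response, targets of ATF4 and CHOP, and translocon and signal peptidase subunits. A member was every probe whose symbol on the Illumina MouseWG-6 array was one of these. Of the 38 symbols, 37 were found, with 61 of the 45281 probes and 37 of the 30869 distinct symbols of the table. *Manf* was not listed under that name, but its older name *Armet*, also in the list, was.

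Cells came from the colon lamina propria of mice given dextran sulphate sodium (DSS, 2% in the labels), which damages the colon epithelium. Mice were wild type (WT) or *Mbd2*-/-, lacking the methyl-CpG binding protein Mbd2 in all tissues, and were co-housed littermates. The sorted populations were monocytes (CD11b+ Ly6C+, without the macrophage antigen encoded by *Emr1*), macrophages (CD11b+ MHC-II+ Ly6C-, with that antigen) and type 1 conventional dendritic cells (cDC1s, CD11c+ CD11b- CD103+), the last named CD11bnegDC in the labels. Monocytes and macrophages had 5 WT and 5 *Mbd2*-/- arrays each and cDC1s 2 WT and 3 *Mbd2*-/- arrays, 25 in all, each made from RNA of 1 or more mice, with no colon array from mice without DSS. Mice were adult, matched for age and sex, and on a C57BL/6 background.

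The unfolded protein response is set off when unfolded proteins gather in the ER. The sensor IRE1 splices *Xbp1* mRNA, PERK acts through ATF4 and CHOP, and ATF6 is cut to release a transcription factor. The targets include chaperones led by BiP, lectins, isomerases and ERAD factors, which raise folding capacity or remove misfolded proteins. Plasma cells and goblet cells depend on this system for secretion, and IRE1 and XBP1 are also known to act in dendritic cells, cDC1s among them.

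Array means ran from 172 to 353 intensity units, and 16024 to 18608 probes per array were detected (detection p under 0.05). Markers followed the sort labels. Of the cDC1 markers tested, 8 of 9 were higher in cDC1s than in monocytes and 8 of 8 higher than in macrophages, and 8 of 9 macrophage markers were higher in macrophages than in monocytes. Of the monocyte markers, 5 of 6 were lower in macrophages and 6 of 6 lower in cDC1s than in monocytes. The *Mbd2* probe was detected on none of the 25 arrays, WT included, with log2 levels between 4.17 and 4.62, so that it checked no label. Array columns in the deposited table were cut, in their order, into runs of 6, the number of arrays on this chip type. The chips were not named, so that these runs are an assumed grouping. Monocytes and macrophages lay in different runs, as did WT and *Mbd2*-/- cDC1s, so these differences cannot be told apart from the run, while both genotypes of monocytes and of macrophages were in each of their runs. In such bulk samples fewer cells of a type and less RNA per cell cannot be told apart. P-values measured the spread between these arrays, whose number limits the precision.

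The promoters of members on which the results turned are shown first, as the 250 bases before the annotated start (RefSeq, GRCm38.p6, 5′ to 3′ on the gene's strand), because they carry or lack the sequence elements the response is known for. A promoter entry was found for 31 of the 37 members. Capitals mark the ER stress response element, CCAAT and CCACG with any 9 bases between them, its second form ATTGG, any base, CCACG, or the ATF4 element TGATGNAA, searched on both strands. *Creld2* (chr15:88819396-88819645, plus strand) and *Calr* (chr8:84846932-84847181, minus strand) held the first element on the minus strand of the promoter, *Hspa5* (chr2:34771840-34772089, plus strand) on its plus strand. *Herpud1* (chr8:94386179-94386428, plus strand) held the second form and the ATF4 element, and *Chac1* (chr2:119350992-119351241, plus strand) the ATF4 element. *Sdf2l1* (chr16:17132384-17132633, minus strand) and *Trib3* (chr2:152344061-152344310, minus strand), each higher in *Mbd2*-/- cells of 1 type, held no match in this window.
Creld2: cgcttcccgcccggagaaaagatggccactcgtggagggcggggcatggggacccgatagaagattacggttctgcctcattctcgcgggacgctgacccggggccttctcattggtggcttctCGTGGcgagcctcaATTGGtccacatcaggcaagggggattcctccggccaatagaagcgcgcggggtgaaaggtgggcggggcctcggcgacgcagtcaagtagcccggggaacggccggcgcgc
Sdf2l1: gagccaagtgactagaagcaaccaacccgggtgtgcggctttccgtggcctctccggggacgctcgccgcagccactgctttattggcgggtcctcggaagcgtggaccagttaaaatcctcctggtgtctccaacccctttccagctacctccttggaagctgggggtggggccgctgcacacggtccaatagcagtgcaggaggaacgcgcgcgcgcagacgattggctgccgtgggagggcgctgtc
Trib3: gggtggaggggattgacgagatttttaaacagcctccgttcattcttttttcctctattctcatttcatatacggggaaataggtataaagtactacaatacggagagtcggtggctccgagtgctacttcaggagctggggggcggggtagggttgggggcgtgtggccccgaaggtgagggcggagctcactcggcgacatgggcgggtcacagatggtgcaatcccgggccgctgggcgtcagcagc
Hspa5: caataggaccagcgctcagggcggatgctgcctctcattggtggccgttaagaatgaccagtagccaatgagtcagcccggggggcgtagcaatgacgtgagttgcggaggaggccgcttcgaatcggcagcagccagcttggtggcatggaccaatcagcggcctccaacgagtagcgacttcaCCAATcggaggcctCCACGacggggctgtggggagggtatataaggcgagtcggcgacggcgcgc
Calr: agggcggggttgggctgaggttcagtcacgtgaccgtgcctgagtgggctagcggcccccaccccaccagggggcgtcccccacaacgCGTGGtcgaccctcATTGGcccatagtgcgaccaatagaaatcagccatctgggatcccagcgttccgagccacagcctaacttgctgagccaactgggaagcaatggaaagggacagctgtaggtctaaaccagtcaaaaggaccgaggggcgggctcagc
Chac1: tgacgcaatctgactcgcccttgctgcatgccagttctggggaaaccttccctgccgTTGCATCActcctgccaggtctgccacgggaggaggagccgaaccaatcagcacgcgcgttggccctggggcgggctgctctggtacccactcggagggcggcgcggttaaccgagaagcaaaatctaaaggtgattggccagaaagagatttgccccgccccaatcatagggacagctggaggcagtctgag
Herpud1: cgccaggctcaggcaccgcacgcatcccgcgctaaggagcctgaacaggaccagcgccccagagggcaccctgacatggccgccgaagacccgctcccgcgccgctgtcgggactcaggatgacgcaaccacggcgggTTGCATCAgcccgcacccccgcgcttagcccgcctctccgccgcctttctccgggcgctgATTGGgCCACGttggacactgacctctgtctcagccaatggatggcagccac

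The ER stress response element was present in 9 of the 31 member promoters (29%), against 0.13% of the 27025 promoters in the table. The members were *Hspa5*, *Hsp90b1*, *Dnajc3*, *Creld2*, *Calr*, *Canx*, *Pdia6*, *Syvn1* and *Derl3*, and *Hsp90b1* held 2 copies. The second form was in *Herpud1* alone among members (0.037% of all promoters). The ATF4 element was in *Herpud1*, *Chac1* and *Asns*, 9.68% of members against 3.91% of all. The letters TGACGTGG, the unfolded protein response element, were in no member and in 0.603% of all promoters. Matches with the first element did not overlap those with the others.

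**Figure D1:**
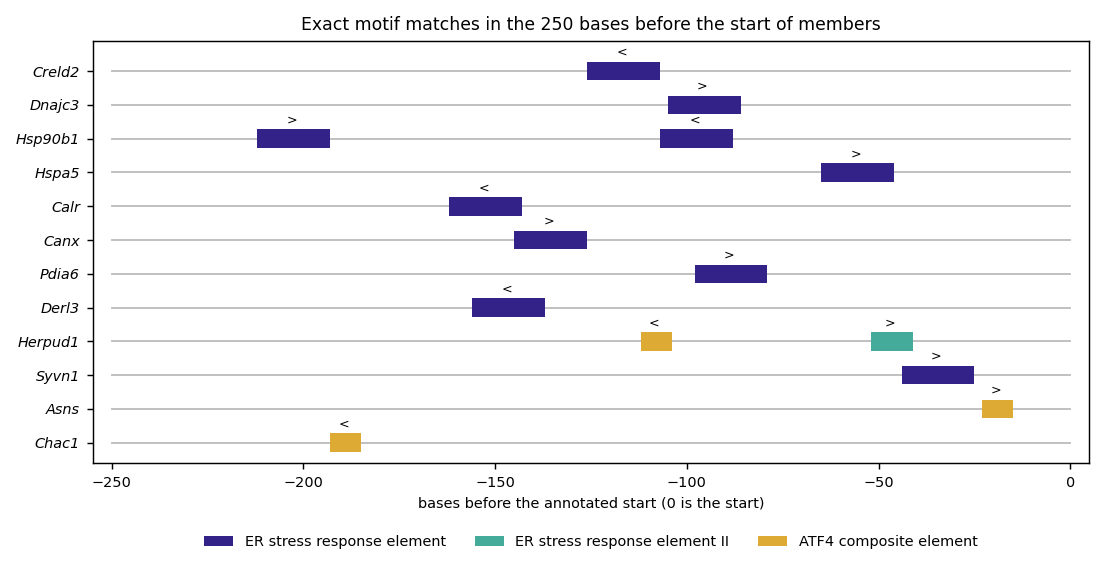
Position of each motif match in the 250 bases before the start of the 10 member genes with an ER stress response element of either form, and of *Chac1* and *Asns* with an ATF4 element; the horizontal axis is distance to the start in bases, and each bar is 1 match, with an arrowhead for its strand. The element of *Hspa5* lies at -65 to -47 and that of *Creld2* at -126 to -108 from the start.

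Most members were measured well. Probes of 33 members could be tested between genotypes in monocytes and in macrophages and of 34 in cDC1s, where the arrays detecting a probe had to number no fewer than those of the smaller group. *Canx* (calnexin), *Derl1* (a channel-forming ERAD protein) and *Ero1l* (the oxidase that recharges disulfide isomerases) were not tested in any comparison, as their probes were detected on at most 1 array each. *Edem1*, a lectin of ERAD, was detected on 8 of the 25 arrays by its best probe and entered only the comparisons with cDC1s. Where a gene had several probes the brightest tested one was used, and the others are given where they differed. All levels below are normalised log2 intensities, and levels of different probes are not set against each other.

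Few members differed between genotypes. In monocytes 1 of 33 was higher in *Mbd2*-/- cells and 0 lower, against 1.06% and 1.43% of the 11992 genes tested (limma, Benjamini-Hochberg adjusted p under 0.05). In macrophages 2 of 33 were higher and 1 lower, against 3.04% and 4.14% of 12515 genes. In cDC1s 2 of 34 were higher and 0 lower, against 4.90% and 3.91% of 13051 genes. At an unadjusted p under 0.05 the members numbered 5, 5 and 8, which was 15.2%, 15.2% and 23.5% of those tested, against 16.2%, 25% and 25.8% of all genes. The median log2 difference of the members was 0.00219 in monocytes, -0.0183 in macrophages and 0.149 in cDC1s, beside -0.0319, -0.0776 and 0.0462 over all genes. The members that passed were *Creld2* in monocytes and macrophages, *Sdf2l1* and *Tram1* in macrophages, and *Armet* and *Trib3* in cDC1s.

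**Figure D2:**
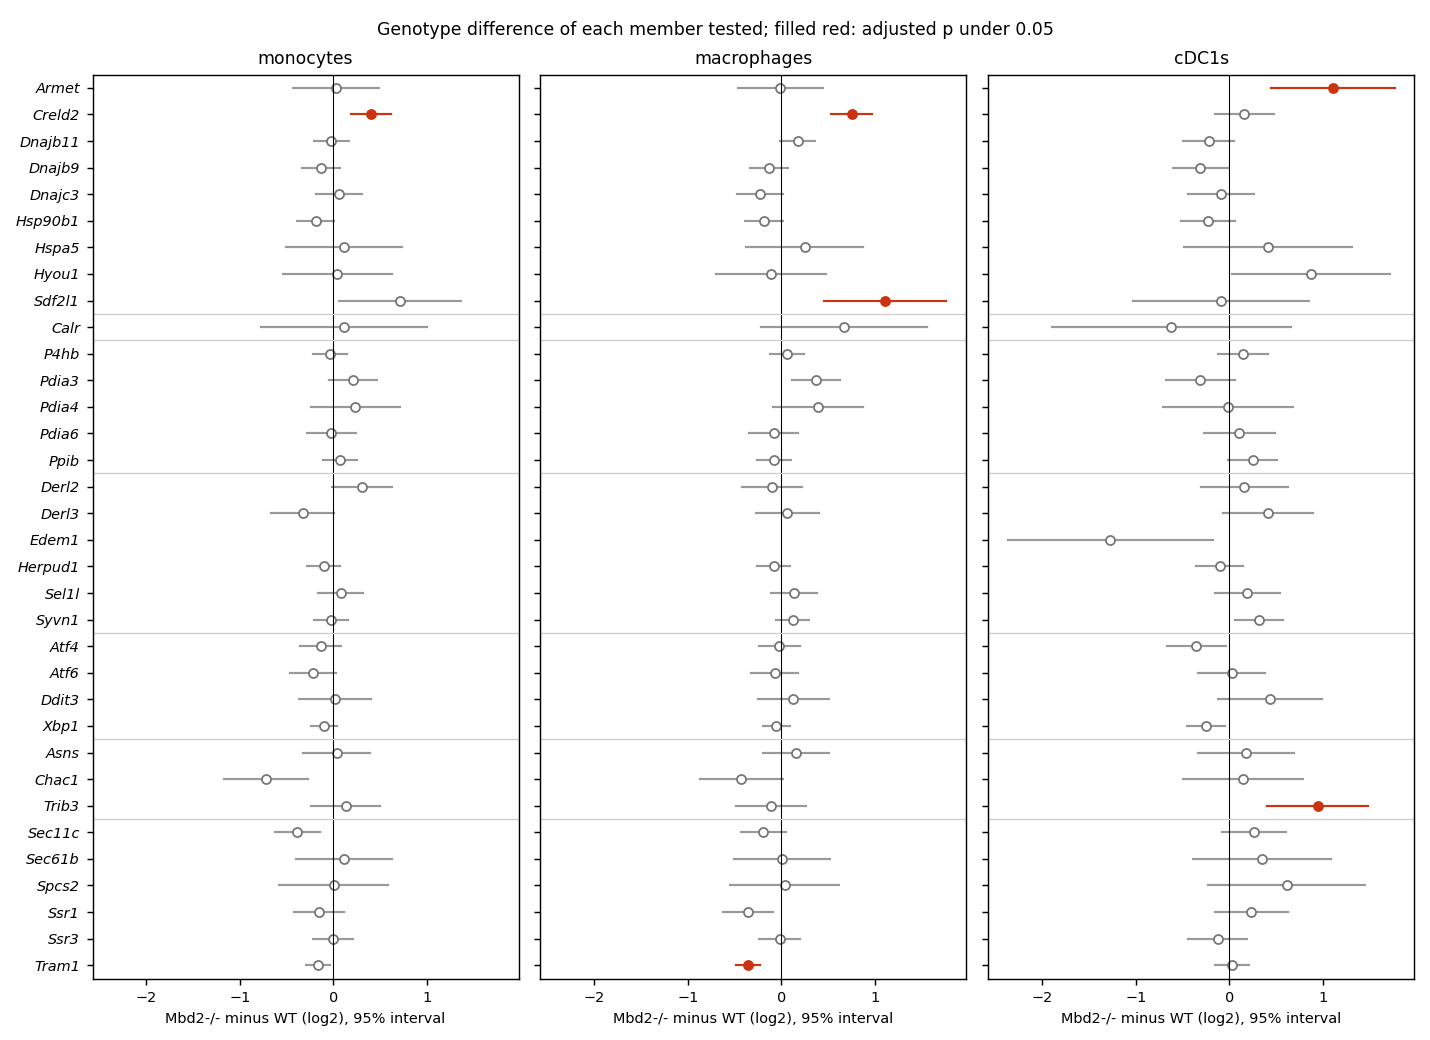
Log2 difference between *Mbd2*-/- and WT cells for each member tested, with its 95% interval, in monocytes, macrophages and cDC1s; filled points have an adjusted p under 0.05 and rows are grouped by role. *Creld2* sits at 0.40 in monocytes and 0.75 in macrophages, *Sdf2l1* at 1.10 and *Tram1* at -0.35 in macrophages, and *Armet* at 1.11 and *Trib3* at 0.95 in cDC1s.

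Among the chaperones and co-chaperones (9 of 10 symbols tested), *Creld2* was higher in *Mbd2*-/- monocytes and macrophages. It encodes an ER protein with EGF-like domains that is induced by ER stress and is linked to disulfide exchange. In the array orders 1 to 5 for WT and 9, 10, 6, 7, 8 for *Mbd2*-/-, monocytes read 9.53, 9.85, 9.41, 9.78 and 9.79 in WT and 10.08, 10.29, 10.07, 9.90 and 10.03 in *Mbd2*-/-. The lowest *Mbd2*-/- array was just above the highest WT array. The log2 difference was 0.40 (SE 0.104, 95% interval 0.19 to 0.62, adjusted p = 0.0443), and it was 0.59 and 0.22 within the runs of 6 columns. The call ended when any of 7 of the 10 arrays was left out (range of the difference 0.338 to 0.447), all but WT arrays 4 and 5 and *Mbd2*-/- array 7. It also ended with the run as a fixed block (0.393, adjusted p = 0.0662, an alternative chosen after seeing the data). The same held with monocytes normalised and fitted alone, without the spread shared with the other groups (0.415, adjusted p = 0.0543). It held too without the filter on dim probes (adjusted p = 0.117). The second *Creld2* probe gave 0.45 (adjusted p = 0.0923).

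In macrophages the *Creld2* difference was larger. WT arrays 11 to 15 read 9.52, 9.18, 9.65, 9.58 and 9.48, and *Mbd2*-/- arrays 19, 20, 16, 17 and 18 read 10.35, 10.48, 10.06, 10.14 and 10.14. The groups did not overlap. The log2 difference was 0.75 (SE 0.104, 0.53 to 0.97, adjusted p = 0.00035), 0.96 and 0.58 within the runs, and it passed with each array left out in turn (0.676 to 0.797). The second probe gave 0.74 (adjusted p = 0.00473), again with no overlap. In cDC1s, WT arrays 23 and 26 read 10.57 and 10.81 and *Mbd2*-/- arrays 27, 28 and 30 read 10.89, 10.70 and 10.96, a difference of 0.16 (-0.15 to 0.47, adjusted p = 0.538) with overlapping groups.

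*Sdf2l1*, a partner of the ER HSP70 system, was higher in *Mbd2*-/- macrophages. WT macrophage arrays read 7.06, 5.57, 7.27, 6.52 and 7.52 and *Mbd2*-/- arrays 7.96, 8.77, 8.02, 7.50 and 7.22, in the same array order. The groups overlapped, with *Mbd2*-/- array 17 just below the highest WT array and array 18 also below WT array 13. The log2 difference was 1.10 (SE 0.314, 0.45 to 1.76, adjusted p = 0.0387), and it was 1.73 in the run of arrays 11, 12, 13, 19 and 20 and 0.56 in that of arrays 14 to 18. It did not pass when WT array 12 (0.795, adjusted p = 0.118) or 14, or *Mbd2*-/- array 16, 19 or 20 (0.891, adjusted p = 0.122) was left out. Nor did it pass with macrophages normalised and fitted alone (1.11, adjusted p = 0.158), array weights (0.921, adjusted p = 0.0581) or no filter on dim probes (adjusted p = 0.101).

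In monocytes *Sdf2l1* read 8.02, 7.07, 6.95, 6.87 and 7.36 in WT and 8.08, 8.21, 7.73, 8.24 and 7.56 in *Mbd2*-/-. All *Mbd2*-/- arrays were above 4 of the 5 WT arrays, and the difference of 0.71 (0.06 to 1.36, adjusted p = 0.276) did not pass. In cDC1s it read 8.99 and 8.69 in WT and 8.64, 8.83 and 8.79 in *Mbd2*-/- (-0.09, -1.03 to 0.86, adjusted p = 0.931). For both *Creld2* and *Sdf2l1* each WT cDC1 array was above every WT macrophage array.

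*Armet* encodes MANF, an ER-resident partner of BiP that can also be secreted. It was close to the detection limit, and was detected on 18 of the 25 arrays, 1 of 2 WT and 3 of 3 *Mbd2*-/- cDC1 arrays among them. WT cDC1 arrays read 4.44 and 4.84 and *Mbd2*-/- arrays 5.00, 5.62 and 6.64. The groups did not overlap, and array 30 lay far above the rest. The difference of 1.11 (SE 0.319, 0.45 to 1.77, adjusted p = 0.0343) fell to 0.68 (adjusted p = 0.142) without array 30, and it also did not pass without *Mbd2*-/- array 28 (adjusted p = 0.0547) or WT array 23 (adjusted p = 0.245). With cDC1s normalised and fitted alone the *Armet* difference was 0.918 (limma, adjusted p = 0.341). WT monocytes read 4.44, 4.81, 4.88, 5.00 and 4.59 and *Mbd2*-/- monocytes 5.00, 4.44, 4.75, 4.54 and 5.12, a difference of 0.03 (adjusted p = 0.970). WT macrophages read 4.65, 4.58, 4.93, 5.17 and 4.94 and *Mbd2*-/- macrophages 4.50, 4.75, 4.79, 4.95 and 5.25, a difference of -0.01 (adjusted p = 0.985), so that neither cell type separated the genotypes.

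*Hspa5*, which encodes BiP, the main ER HSP70 and the usual read-out of the response, did not pass in any cell type. Monocytes read 7.19, 8.46, 7.65, 8.02 and 7.46 in WT and 7.89, 8.07, 7.68, 7.94 and 7.76 in *Mbd2*-/- (0.11, -0.51 to 0.73, adjusted p = 0.905). Macrophages read 7.53, 7.55, 7.99, 8.18 and 8.65 in WT and 8.17, 8.51, 7.83, 8.47 and 8.17 in *Mbd2*-/- (0.25, -0.37 to 0.87, adjusted p = 0.635). Groups overlapped in all 3 cell types. In cDC1s WT arrays read 7.71 and 8.36 and *Mbd2*-/- arrays 7.80, 7.89 and 9.66 (0.42, -0.48 to 1.32, adjusted p = 0.587). Array 30 was the highest of the 25 arrays for *Hspa5*, *Armet* and *Hyou1*, and without it the *Hspa5* difference in cDC1s was -0.186. It was also the highest for *Creld2*, *Sec11c*, *Sec61b* and *Spcs2*. No other colon array was in its run of columns, so its levels cannot be told apart from the run. Array 30 also had the lowest mean log2 level of 9 T cell markers among the cDC1 arrays (5.49, others 5.82 to 7.16) and the highest of 9 macrophage markers (7.56, others 6.56 to 7.06), and their part in these values was not tested.

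The remaining chaperones did not pass between genotypes. *Hyou1* (GRP170, the exchange factor of BiP) read 4.72 and 6.22 in WT cDC1s and 6.22, 5.79 and 7.02 in *Mbd2*-/- cDC1s, a difference of 0.88 (0.03 to 1.72, adjusted p = 0.179), and -0.11 to 0.04 in the other cell types. *Hsp90b1* (GRP94, the ER HSP90) differed by -0.23 to -0.19 in the 3 cell types. The co-chaperones *Dnajb9*, *Dnajb11* and *Dnajc3*, J-domain proteins that work with BiP, lay between -0.31 and 0.17, with adjusted p of 0.179 or more.

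Of the calnexin cycle lectins, which hold glycoproteins during folding, only *Calr* (calreticulin) was tested. Its WT and *Mbd2*-/- values overlapped in every cell type and differed by 0.12 in monocytes, 0.67 in macrophages and -0.62 in cDC1s (adjusted p = 0.933, 0.336 and 0.568). Of the isomerases 5 of 6 were tested and none passed. The smallest adjusted p was that of *Pdia3* (ERp57, the isomerase that works with the lectins) in macrophages, with a difference of 0.38 (0.12 to 0.63, adjusted p = 0.0656), against 0.21 in monocytes and -0.31 in cDC1s. *Pdia4* lay at 0.24, 0.39 and -0.02, and *P4hb*, *Pdia6* and *Ppib* (cyclophilin B) between -0.08 and 0.25.

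Of the ERAD factors, 5 of 7 were tested in monocytes and macrophages and 6 in cDC1s, and none passed between genotypes. *Herpud1*, an ER membrane scaffold of the ERAD ligase, differed by -0.10 in monocytes, -0.08 in macrophages and -0.10 in cDC1s. *Syvn1* (the ligase HRD1) differed by -0.03, 0.12 and 0.32, the last with an adjusted p of 0.105, and its partner *Sel1l* by 0.08, 0.14 and 0.19. *Derl2* differed by 0.30, -0.10 and 0.16. *Derl3* was not detected on either WT cDC1 array and was detected on 3 of 3 *Mbd2*-/- arrays. The bound on its means was 1.28-fold, and the difference did not pass (adjusted p = 0.264). *Edem1* was detected on no *Mbd2*-/- cDC1 array and was tested there through the WT arrays alone. WT array 23 read 6.69 and array 26 only 4.61, against 4.53, 4.34 and 4.27 in *Mbd2*-/-. The bound on its means, 2-fold lower, thus rested on array 23, where its other probes read 4.32 and 4.39. The difference did not pass (adjusted p = 0.131). A bound sets the detecting group's mean against, on each array of the other group, the higher of its lowest detected signal and the probe's own.

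Of the 4 transcription factors none passed between genotypes. *Xbp1* is the mRNA that IRE1 splices, and its splicing was not measured here. Monocytes read 11.93, 11.99, 11.91, 11.92 and 12.07 in WT and 11.82, 11.96, 11.86, 11.88 and 11.80 in *Mbd2*-/- (-0.10, -0.24 to 0.04, adjusted p = 0.531). Macrophages read 11.52, 11.94, 11.68, 11.55 and 11.63 in WT and 11.56, 11.69, 11.49, 11.63 and 11.68 in *Mbd2*-/- (-0.05, -0.20 to 0.09, adjusted p = 0.657). In cDC1s WT arrays read 11.61 and 11.49 and *Mbd2*-/- arrays 11.47, 11.20 and 11.23, which did not overlap (-0.25, -0.46 to -0.04, adjusted p = 0.117). Without *Mbd2*-/- array 27 this difference passed (-0.332, adjusted p = 0.0362).

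*Ddit3* encodes CHOP, the factor downstream of ATF4 that is linked to cell death under lasting ER stress. Monocytes read 8.65, 8.18, 8.41, 8.00 and 8.79 in WT and 7.93, 8.49, 8.63, 8.52 and 8.52 in *Mbd2*-/- (0.01, -0.37 to 0.40, adjusted p = 0.983). Macrophages read 9.00, 8.10, 8.31, 8.01 and 8.15 in WT and 8.19, 8.77, 8.41, 8.35 and 8.51 in *Mbd2*-/- (0.13, -0.25 to 0.51, adjusted p = 0.694). Both pairs of groups overlapped. In cDC1s WT arrays read 7.99 and 8.01 and *Mbd2*-/- arrays 8.47, 8.74 and 8.10, with no overlap and a difference of 0.43 (-0.12 to 0.99, adjusted p = 0.321), and the second probe gave 0.68 (adjusted p = 0.0851). *Atf4* differed by -0.14, -0.02 and -0.35 (adjusted p = 0.145 in cDC1s) by its brighter probe, while its dimmer probe gave 0.22, 0.71 and -1.23 and passed in none. *Atf6* differed by -0.21, -0.07 and 0.03.

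Among the targets of ATF4 and CHOP, *Trib3* was higher in *Mbd2*-/- cDC1s. It encodes a pseudokinase that curbs this arm of the response. WT cDC1 arrays read 5.13 and 6.07 and *Mbd2*-/- arrays 6.64, 6.83 and 6.17, with no overlap. The difference was 0.95 (SE 0.259, 0.41 to 1.48, adjusted p = 0.0272). The 2 WT arrays were far apart, and it was 1.42 without array 26 and 0.474 (adjusted p = 0.417) without array 23, and it did not pass without *Mbd2*-/- array 28 (adjusted p = 0.0918). With cDC1s normalised and fitted alone the *Trib3* difference was 0.831 (limma, adjusted p = 0.26). A second, mostly undetected *Trib3* probe gave 0.07.

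Monocytes read 4.94, 5.29, 5.55, 5.82 and 5.32 for *Trib3* in WT and 5.27, 5.44, 5.45, 5.55 and 5.85 in *Mbd2*-/- (0.13, adjusted p = 0.791). Macrophages read 4.93, 5.64, 5.37, 5.43 and 5.10 in WT and 5.16, 5.14, 5.02, 5.28 and 5.32 in *Mbd2*-/- (-0.11, adjusted p = 0.733). Neither separated the genotypes. *Chac1*, which encodes an enzyme that degrades glutathione, differed by -0.72 in monocytes (-1.17 to -0.27, adjusted p = 0.0828), -0.43 in macrophages and 0.15 in cDC1s. *Asns* (asparagine synthetase) differed by 0.03, 0.16 and 0.18.

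Of the 6 translocon and signal peptidase genes *Tram1* was lower in *Mbd2*-/- macrophages. It encodes a membrane protein that helps nascent chains into the ER. WT macrophages read 11.19, 11.17, 11.26, 11.21 and 11.25 and *Mbd2*-/- macrophages 10.83, 10.84, 10.98, 10.83 and 10.83. The groups did not overlap and the spread within each was small. The difference was -0.35 (SE 0.0615, -0.48 to -0.22, adjusted p = 0.00274), -0.37 and -0.35 within the runs, and passed with each array left out in turn. A second probe gave -0.38 (adjusted p = 0.0331) with no overlap, and the dimmest probe gave 0.55 (adjusted p = 0.163).

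Monocytes read 11.28, 11.36, 11.41, 11.33 and 11.11 for *Tram1* in WT and 11.08, 11.09, 11.12, 11.11 and 11.27 in *Mbd2*-/- (-0.16, -0.29 to -0.04, adjusted p = 0.181). In cDC1s WT arrays read 10.91 and 11.29 and *Mbd2*-/- arrays 11.10, 11.12 and 11.17 (0.03, adjusted p = 0.873), while the dimmest probe fell by 1.16 on the log2 scale (adjusted p = 0.0438). These groups overlapped for the brightest probe. The dimmest probe read 8.11 and 6.63 on WT arrays 23 and 26 and 6.70, 5.98 and 5.95 on *Mbd2*-/- arrays 27, 28 and 30, which also overlapped. *Sec11c*, a catalytic subunit of signal peptidase, differed by -0.38 in monocytes (-0.62 to -0.15, adjusted p = 0.0829, no overlap, and adjusted p = 0.0417 with the run as a fixed block), -0.19 in macrophages and 0.27 in cDC1s. *Ssr1* (a subunit of the translocon-associated protein complex) differed by -0.35 in macrophages (adjusted p = 0.0932), -0.16 in monocytes and 0.24 in cDC1s, and *Ssr3*, *Sec61b* and *Spcs2* by -0.12 to 0.61.

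**Figure D3:**
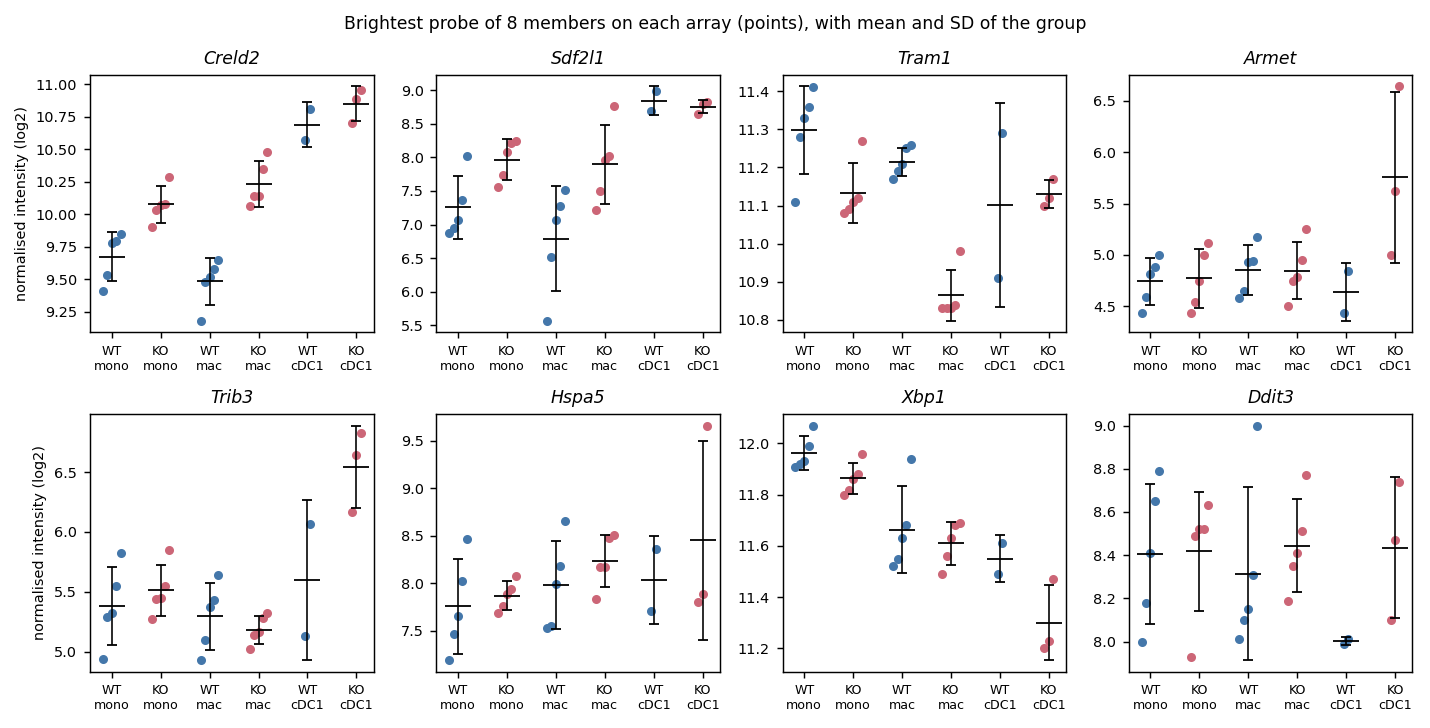
Log2 intensity of 8 members on each of the 25 colon arrays, by cell type and genotype, 1 point per array, with a line at each group mean: *Hspa5*, *Xbp1*, *Ddit3* and the members that passed between genotypes. The *Creld2* points of *Mbd2*-/- macrophages (10.06 to 10.48) lie above all WT macrophages (9.18 to 9.65), and 1 *Mbd2*-/- cDC1 array is the highest for *Hspa5* (9.66) and *Armet* (6.64).

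Whether the genotype difference itself differed between cell types was tested with interaction terms. Between macrophages and monocytes 0 of 33 members passed (2 at an unadjusted p under 0.05, limma), where 0.0165% of genes did, and the *Creld2* difference was 0.35 larger in macrophages (0.04 to 0.66, adjusted p = 0.560). Between cDC1s and monocytes 0 of 34 passed (8 unadjusted), where 2.10% of genes did. Between cDC1s and macrophages 4 of 34 passed, 11.8% against 10.3% of all genes, and they were *Creld2*, *Tram1*, *Trib3* and *Pdia3*. The difference in cDC1s less that in macrophages was -0.59 for *Creld2* (SE 0.183, adjusted p = 0.0432), 0.38 for *Tram1* (adjusted p = 0.0306), 1.06 for *Trib3* (SE 0.315, adjusted p = 0.0372) and -0.69 for *Pdia3* (SE 0.217, adjusted p = 0.0467).

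*Pdia3* had not passed within either cell type. WT macrophages read 11.61, 10.85, 11.48, 11.29 and 11.66 and *Mbd2*-/- macrophages 11.91, 12.03, 11.67, 11.59 and 11.56. WT cDC1s read 12.09 and 12.18 and *Mbd2*-/- cDC1s 11.98, 11.68 and 11.80, all below WT. The dim *Tram1* probe gave an interaction of the opposite sign (-1.72, adjusted p = 0.0188). That probe read 8.11 on WT cDC1 array 23 and at most 6.70 on the other cDC1 arrays. The count of 4 ranged from 0 to 6 when single arrays were left out, at 0 without WT cDC1 array 23 or *Mbd2*-/- cDC1 array 28, and at 1 without *Mbd2*-/- cDC1 array 30 or *Mbd2*-/- macrophage array 19 or 20. In these comparisons the genotype of cDC1s cannot be told apart from the run of array columns.

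Of 14 epithelial and goblet cell markers 12 to 14 were detected on each array, with summed intensities of 6789 to 28290. Their mean log2 level in cDC1s was 9.1 and 7.62 on WT arrays 23 and 26. On *Mbd2*-/- arrays 27, 28 and 30 it was 8.9, 9.05 and 8.34. Markers of other cells moved with genotype in some groups. *Reg3b* and *Reg3g*, antimicrobial lectins of the epithelium, were higher by 1.38 and 1.58 in *Mbd2*-/- monocytes and by 1.29 and 1.66 in *Mbd2*-/- macrophages, and *Reg3b* by 1.38 in *Mbd2*-/- cDC1s, the only epithelial markers of 13 tested that passed. Of the plasma and B cell markers, which mark cells rich in ER, 3 of 12 were lower in *Mbd2*-/- monocytes (*Tnfrsf17*, *Irf4* and *Cd79b*), 2 of 13 lower in *Mbd2*-/- macrophages (*Irf4* and *Cd79b*) and 0 of 10 passed in cDC1s, and none was higher. The 14 markers had summed intensities of 24210 to 31050 in WT and 23530 to 27760 in *Mbd2*-/- monocytes, 19200 to 27330 and 18390 to 27630 in macrophages, and 17690 to 20190 and 14090 to 21300 in cDC1s. Of the 14 plasma and B cell markers 9 to 13 were detected on each array, while *Pax5*, a B cell factor, was detected on none. Of the monocyte markers *Ly6c1* and *Plac8* were higher in *Mbd2*-/- macrophages (0.91 and 0.45). In *Mbd2*-/- cDC1s, where *Armet* and *Trib3* passed, the macrophage marker *C1qb* (0.93, 1 of 9 tested), the neutrophil marker *Ltf* (1.07, 1 of 4) and the eosinophil marker *Prg2* (1.27, 1 of 3) were higher. In *Mbd2*-/- macrophages *Mertk* (0.88, a macrophage marker) and *Prg2* (0.91) were higher and *Zbtb46* (-0.55, from the cDC1 list) lower, and in *Mbd2*-/- monocytes *Zbtb46* (-0.44) and *Mrc1* (-0.74, from the macrophage list) were lower. No marker of the stromal or T cell lists passed between genotypes. The part of these cells in the members' values was not tested.

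The rest of the pathway was taken from a list of 137 further genes, of which 127 were on the array. In monocytes 1 of 107 tested was lower and 0 higher in *Mbd2*-/- cells, 0.935% lower beside 1.43% of all genes. In macrophages 1 of 108 was higher and 3 lower, 0.926% and 2.78% beside 3.04% and 4.14%. In cDC1s 9 of 110 were higher and 2 lower, 8.18% and 1.82% beside the 4.90% and 3.91% of all genes. *Nars* (asparaginyl-tRNA synthetase) was lower in *Mbd2*-/- cells of all 3 types, by -0.41 in monocytes (adjusted p = 0.0465), -0.76 in macrophages (adjusted p = 0.000486) and -0.60 in cDC1s (adjusted p = 0.0207).

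In macrophages *Mthfd2* (a mitochondrial folate enzyme, -0.34) and *Dad1* (an oligosaccharyltransferase subunit, -0.32) were also lower and *Edem2* (a mannosidase of ERAD) higher by 0.28. A further *Mthfd2* probe gave -0.12 (limma, adjusted p = 0.623), and further *Edem2* probes gave 0.11 and 1.15 (adjusted p = 0.68 and 0.0566). In cDC1s the largest of the other differences were those of *Eprs* (a glutamyl-prolyl-tRNA synthetase, -1.89, adjusted p = 0.0257), *Atf5* (a stress transcription factor, 0.90), *Shmt2* (serine hydroxymethyltransferase of mitochondria, 0.86) and *Lman1* (ERGIC-53, a cargo receptor for ER export, 0.69). Named after their values were seen, the other pathway genes higher in *Mbd2*-/- cDC1s were the transcription factors *Cebpb* (0.43) and *Creb3* (0.40), the cargo lectin *Lman2* (0.54), *Srp14* (0.37) of the signal recognition particle, *Ddost* (0.34) of oligosaccharyltransferase and *Spcs1* (0.31) of signal peptidase. Further probes of these genes did not pass in cDC1s. They gave 0.06 for *Shmt2* (limma, adjusted p = 0.858), 0.06 for *Spcs1* (adjusted p = 0.93) and 0.73 for *Creb3* (adjusted p = 0.0578). Of the other ER folding proteins 0 of 21 passed in monocytes and macrophages and 0 of 22 in cDC1s.

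Many members differed between cell types. Averaged over both genotypes, macrophages had 5 members higher and 7 lower than monocytes of 33 tested, against 23.8% and 18.1% of 12136 genes. The cDC1s had 12 higher and 5 lower than monocytes of 34, against 28.0% and 27.2% of 12897 genes, and 12 higher and 5 lower than macrophages of 34, against 26.8% and 27.8% of 13267 genes. As shares these were 15.2% and 21.2%, 35.3% and 14.7%, and 35.3% and 14.7%. At an unadjusted p under 0.05 (limma) the members were 45.5%, 52.9% and 58.8% of those tested, against 48.9%, 59.6% and 59.1% of all genes. The members' median log2 differences were -0.0266, 0.111 and 0.235, beside 0.0171, -0.0259 and -0.0385 over all genes.

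This split depended on the scaling between arrays. Each array was also scaled to its median in place of quantile normalisation. The median difference of all genes in cDC1s was then -0.308 against monocytes and -0.327 against macrophages. With quantile normalisation it was -0.0259 and -0.0385. After median scaling the members split 3 higher and 12 lower (9.88% and 37.6% of all genes) and 4 higher and 10 lower (8.4% and 39.1%). *Chac1* and *Calr* were higher in both, with *Herpud1* against monocytes and *Sdf2l1* and *Trib3* against macrophages. Macrophages against monocytes then had *Herpud1* higher and 4 members lower (14.4% and 9.77% of all genes), *Sec61b*, *Asns*, *Chac1* and *Derl3*. Relative to the median of all genes after this scaling, 17 members were above and 17 below in cDC1s against monocytes, and 22 above and 12 below against macrophages. With cyclic loess the macrophage split was 5 higher and 11 lower. Between genotypes the median of all genes with median scaling was -0.281 in monocytes, -0.0868 in macrophages and -0.359 in cDC1s. With quantile normalisation it was -0.0319, -0.0776 and 0.0462, so that it hardly moved in macrophages. No member passed between genotypes with median scaling, where *Creld2* was 0.369 above the median of all genes in monocytes and 0.715 in macrophages.

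Between macrophages and monocytes the most marked member was *Herpud1*. Its lowest, median and highest levels were 11.82, 12.09 and 12.24 over the 10 monocyte arrays and 12.74, 12.93 and 13.19 over the 10 macrophage arrays. The cell types did not overlap. The difference was 0.91 (SE 0.0594, adjusted p = 1.01e-10) and 1.02 by the second probe.

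Members of the chaperone group higher in macrophages were *Hsp90b1* (0.34, adjusted p = 0.000346), *Dnajb9* (0.34, adjusted p = 0.000556) and *Dnajc3* (0.26), with *Ssr1* (0.25) of the translocon. The lower members were led by *Sec61b*, a subunit of the translocon channel, with levels of 9.46, 9.71 and 9.90 in monocytes and 7.76, 9.17 and 9.42 in macrophages (-0.79, adjusted p = 0.000949, no overlap). They also included the ATF4 and CHOP targets *Chac1* (-0.59, adjusted p = 0.0034) and *Asns* (-0.55, adjusted p = 0.000917), then *Derl3* (-0.37), *Xbp1* (-0.28, adjusted p = 9.34e-05), *P4hb* (-0.19) and *Tram1* (-0.18). Macrophages and monocytes came from different runs of array columns throughout. Markers of other cells also differed. All 6 neutrophil markers tested were lower in macrophages, whose list summed to 609.8 to 1843 intensity units in WT and 1397 to 5273 in *Mbd2*-/- macrophages, against 2291 to 7601 and 6181 to 8328 in monocytes. Of the plasma and B cell markers *Irf4*, *Cd79b* and *Igh-6* were among those higher and *Sdc1* and *Igk-C* were lower, of the T cell markers *Cd4* and *Cd2* of 7 were higher, and of the eosinophil markers *Ear2* was higher and *Prg2* lower. Of 6 cDC1 markers 5 were higher in macrophages, by 0.23 (*Zbtb46*) to 3.30 (*Igsf4a*). Their part in the members' values was not tested.

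**Figure D4:**
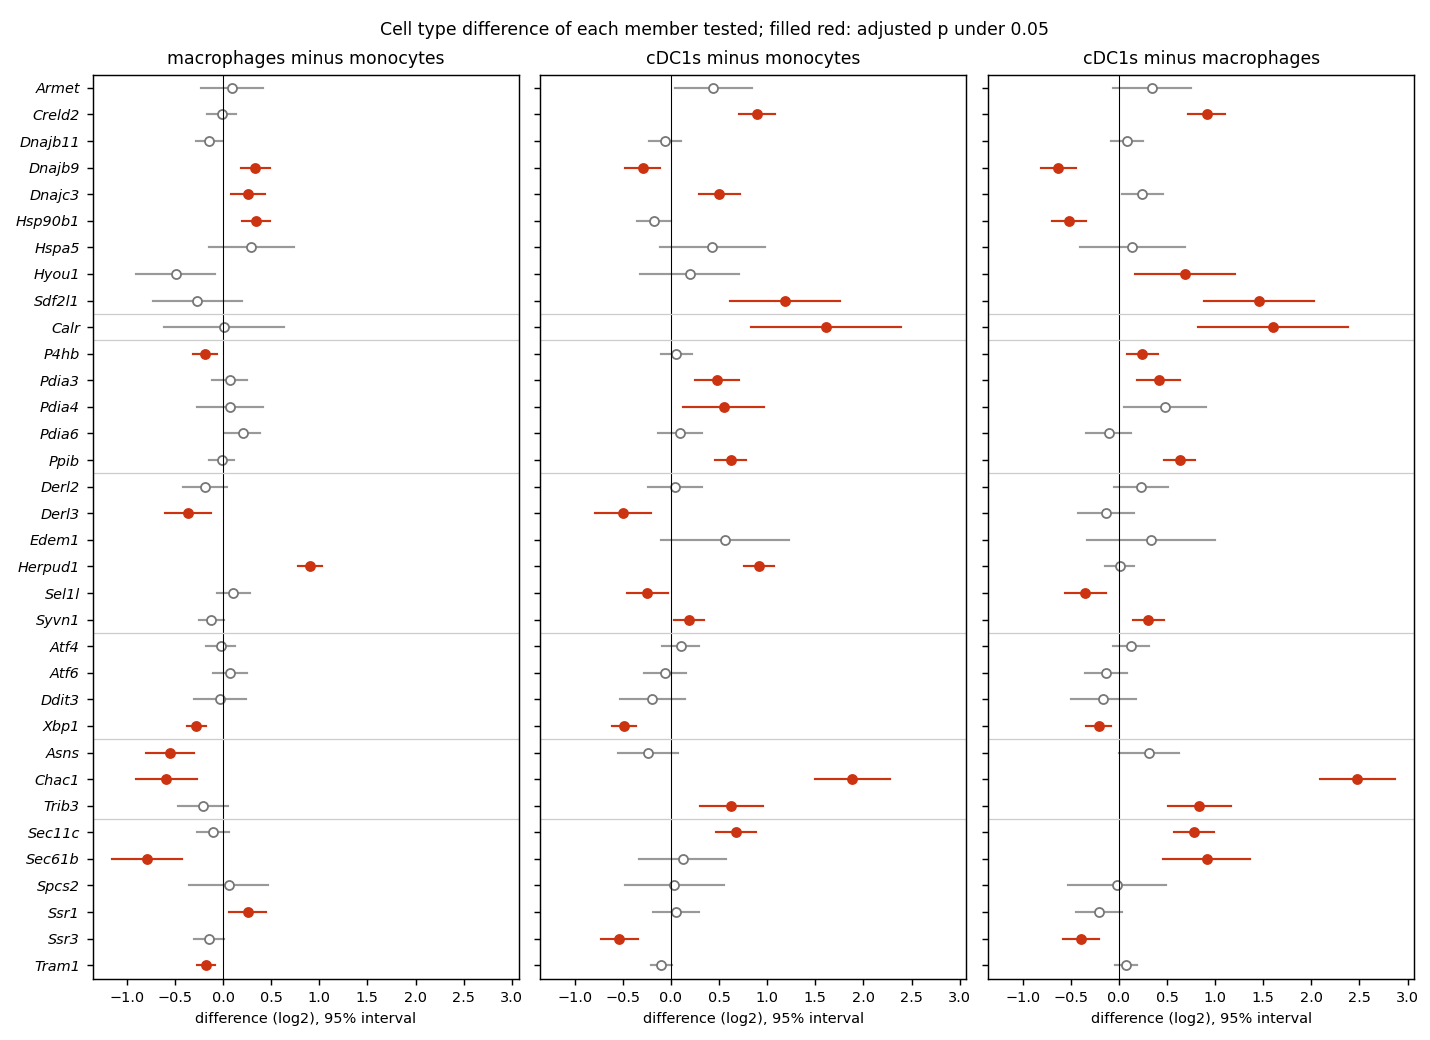
Log2 difference between cell types for each member tested, averaged over genotypes, with its 95% interval; filled points have an adjusted p under 0.05 and rows are grouped by role. *Herpud1* lies at 0.91 in both comparisons with monocytes and close to 0 between cDC1s and macrophages, and *Chac1* at 1.89 and 2.48 in cDC1s.

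The cDC1s stood out for *Chac1*. WT cDC1s read 8.31 and 8.27 and *Mbd2*-/- cDC1s 9.18, 8.25 and 7.90. Monocytes ran from 5.72 to 7.18 (median 6.49) and macrophages from 5.20 to 6.22 (median 6.02), below every cDC1 array. The difference was 1.89 against monocytes (SE 0.189, adjusted p = 2.02e-08) and 2.48 against macrophages (SE 0.189, adjusted p = 2.95e-10). Of the other targets *Trib3* was higher than in monocytes by 0.63 (adjusted p = 0.0019) and than in macrophages by 0.83 (adjusted p = 0.00012). With WT arrays alone these *Trib3* differences were 0.219 and 0.307, and with *Mbd2*-/- arrays alone 1.03 and 1.36. *Asns* did not pass in either comparison, at -0.24 and 0.31.

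*Calr* read 7.77 and 6.67 in WT and 7.23, 5.68 and 6.89 in *Mbd2*-/- cDC1s, and over monocytes its lowest, median and highest levels were 4.70, 5.30 and 6.03. In macrophages they were 4.47, 5.09 and 7.39, the last on *Mbd2*-/- array 20. The differences were 1.61 (adjusted p = 0.000968) and 1.60 (adjusted p = 0.00107), with overlap in both. *Sdf2l1*, at 8.64 or more on every cDC1 array, was 1.19 higher than in monocytes (adjusted p = 0.000941, no overlap) and 1.46 higher than in macrophages (adjusted p = 0.000125), where *Mbd2*-/- array 20 reached 8.77. *Creld2*, between 10.57 and 10.96 in cDC1s, was 0.90 and 0.91 higher, with no overlap (adjusted p = 2.91e-08 and 2.47e-08). By genotype, the *Sdf2l1* difference from macrophages was 2.05 in WT and 0.861 in *Mbd2*-/-.

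Further members were higher in cDC1s in both comparisons. *Sec11c* was higher by 0.67 than in monocytes and by 0.78 than in macrophages, *Ppib* by 0.62 and 0.63, *Pdia3* by 0.48 and 0.41 and *Syvn1* by 0.19 and 0.31. *Ppib* did not overlap in either comparison, and with median scaling its difference from monocytes was -0.0172. *Herpud1* was higher than in monocytes (0.91, adjusted p = 6.74e-10) and differed from macrophages by 0.01, and *Pdia4* (0.55) and *Dnajc3* (0.50) passed only against monocytes. *Sec61b* (0.91, adjusted p = 0.00121), *Hyou1* (0.69, adjusted p = 0.0233) and *P4hb* (0.24) passed only against macrophages. With WT arrays alone the *Sec61b* and *Hyou1* differences were 0.743 and 0.195 and did not pass (limma, adjusted p = 0.0776 and 0.713). The *Hyou1* difference was 0.525 without *Mbd2*-/- array 30 (adjusted p = 0.0902) and 0.313 without WT array 26.

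The members lower in cDC1s than in both other types were *Xbp1*, *Dnajb9*, *Ssr3* and *Sel1l*. *Xbp1* ran from 11.20 to 11.61 in cDC1s, against 11.80 to 12.07 in monocytes and 11.49 to 11.94 in macrophages. It was lower by -0.49 (adjusted p = 4.97e-07, no overlap) and -0.21 (adjusted p = 0.00545). *Dnajb9* was lower by -0.29 and -0.63, *Ssr3* by -0.54 and -0.39 and *Sel1l* by -0.25 and -0.35. *Hsp90b1* was lower than in macrophages (-0.52, adjusted p = 2.26e-05, no overlap) and *Derl3* than in monocytes (-0.50). *Atf4* did not pass by its brighter probe (0.10 and 0.13), while its dimmer probe was higher by 1.19 (adjusted p = 0.0198) and 1.99 (adjusted p = 0.000358). Of the dimmer *Tram1* probe the same held (0.52 and 0.76), with -0.10 and 0.08 by the brighter one. On WT array 23 these dimmer probes read 10.72 for *Atf4* and 8.11 for *Tram1*, against at most 8.38 and 6.70 on the other cDC1 arrays.

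*Hspa5*, *Ddit3*, *Atf6*, *Armet*, *Dnajb11*, *Pdia6*, *Derl2*, *Edem1* and *Spcs2* passed in no comparison of cell types in which they were tested. Their differences lay between -0.19 and 0.56.

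Arrays of the same run could be compared in part. WT cDC1 arrays 23 and 26 shared runs with WT monocytes, and in those alone, with the run as a block, 9 of 34 members were higher and 2 lower (*Xbp1* and *Derl3*), where 19.7% and 19.3% of all genes were. *Chac1* (1.43), *Calr* (2.02), *Sdf2l1* (1.61), *Herpud1* (0.901), *Creld2* (0.996) and *Ppib* (0.532) passed there, and *Sec11c* (0.347) and *Trib3* (0.169) did not. *Mbd2*-/- cDC1 arrays 27 and 28 shared runs with *Mbd2*-/- macrophages, and there 11 of 34 members were higher and 2 lower (*Hsp90b1* and *Dnajb9*), where 20.7% and 17.6% of all genes were. *Chac1* (3.06), *Trib3* (1.56), *Sec11c* (0.873), *Creld2* (0.533) and *Hyou1* (0.865) passed, and *Calr* (0.703), *Sdf2l1* (0.794) and *Sec61b* (0.972) did not.

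T cell markers were higher in cDC1s than in monocytes for 5 of 6 tested, and against macrophages 4 of 7 were higher and 2 lower. *Cd28* was detected on no cDC1 array. Plasma and B cell markers were lower in cDC1s for 10 of 12 against monocytes and 8 of 13 against macrophages. The part of these cells in the members' cell type differences was not tested.

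The other pathway genes were described by group, and the genes named here were chosen after their values were seen. Of the 19 tested genes of the ATF4 programme, which covers amino acid synthesis, transport and tRNA charging, 11 were higher and 2 lower in cDC1s than in monocytes, and 11 higher and 3 lower than in macrophages. These were 57.9% and 10.5%, and 57.9% and 15.8%, beside 28.0% and 27.2%, and 26.8% and 27.8%, of all genes. *Mthfd2* (1.64 and 1.75 higher) and *Psat1*, an enzyme of serine synthesis (1.35 and 1.10 higher), were among the higher ones. *Slc7a11*, the cystine transporter, was lower by -4.71 and -3.87, *Ddit4*, a stress-induced inhibitor of mTORC1, by -3.61 and -3.19, and *Vldlr*, a lipoprotein receptor, by -0.46 than in macrophages.

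Of the 6 oligosaccharyltransferase subunits, which attach N-glycans, *Ddost*, *Stt3b*, *Dad1* and *Rpn2* were higher in cDC1s in both comparisons, by 0.20 to 0.82, and *Krtcap2* (0.25) than in macrophages. Of the 19 sensors and regulators of the response 2 were higher and 8 lower in cDC1s than in monocytes, and 4 higher and 10 lower than in macrophages, 10.5% and 42.1%, and 21.1% and 52.6%, beside the shares of all genes given above. *Ern1*, which encodes IRE1, was lower by -0.85 and -0.83, and *Cebpb* by -3.18 and -3.03. *Creb3* (0.52 and 0.78) and *Crebl1*, the older name of *Atf6b* (0.46 and 0.67), were higher in both comparisons, and *Nfyb* (0.37) and *Ppp1r15b* (0.55) than in macrophages. Over all pathway genes 35 were higher and 20 lower of 110 against monocytes, 31.8% and 18.2% beside 28.0% and 27.2% of all genes. Against macrophages 46 were higher and 22 lower of 110, 41.8% and 20% beside 26.8% and 27.8%. In macrophages against monocytes 20 were higher and 25 lower of 107, 18.7% and 23.4% beside 23.8% and 18.1%.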

How the data were processed

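Arrays were grouped by the cell type and genotype in the labels and are called by the labels' array numbers. The authors deposited probe intensities, mean bead brightness from GenomeStudio, without normalisation or background subtraction, and for each a deposited detection p-value against negative control beads; per the labels lumi and limma were used. The 3 further signal columns that belong to no sample were not used.

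In R 4.3.3 (data.table version 1.17.8, limma 3.58.1) background was corrected by normexp with negative controls inferred from detection p (offset 16), the 25 arrays were quantile normalised and taken to log2, and 1 limma model of 6 groups was fitted. Controls listed in the file moved values by at most 0.000266. Two-sided tests were adjusted by Benjamini-Hochberg within a comparison over all probes tested, and a member passed at an adjusted p under 0.05. Genes were counted by their brightest tested probe. The script was tested on simulated data.

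Members and lists were chosen with earlier results of these data known. Values on every array are given for *Hspa5*, *Xbp1*, *Ddit3* and members that passed between genotypes, cell type comparisons name the 8 largest changes first, and pathway genes the 5 largest. Alternatives were other background, scaling, filters, thresholds, array weights, blocks and single arrays left out. Promoters are from RefSeq (GRCm38.p6).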

Additional observations from a re-analysis of the deposited data

Results flagged for a closer look

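In 3 of the 32 groups of 5 arrays examined, 1 array lay far from the others by Dixon's 95% limit, which chance alone passes in about 5% of such groups. *Ddit3* on *Mbd2*-/- monocyte array 9 was 7.93, with the nearest other array at 8.49. *Tram1* on *Mbd2*-/- monocyte array 8 was 11.27, nearest 11.12, and on *Mbd2*-/- macrophage array 16 it was 10.98, nearest 10.84.

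The genotype difference in cDC1s less that in macrophages passed the interaction test for 4 of 34 members, where 10.3% of all genes passed, a similar share. It was -0.69 for *Pdia3*, 0.38 for *Tram1*, -0.59 for *Creld2* and 1.06 for *Trib3* on the log2 scale. The genotype of cDC1s cannot be told apart from the run of array columns.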

How the results depend on the processing

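Between genotypes the counts of members (1 in monocytes, 3 in macrophages, 2 in cDC1s) fell to 0, 0 and 0 with median scaling and to 0, 0 and 0 at an adjusted p under 0.01 with a log2 change of at least 1, which left 0, 1 and 1 at the usual p. In monocytes it was 0 without the filter on dim probes or with each cell type normalised and fitted alone, and 4 with array weights. In cDC1s it was 0 with cyclic loess, without the filter, with array weights or normalised and fitted alone, and 1 with a stricter filter. Fitting a cell type alone also dropped the spread shared by the 6 groups. The 4 interactions between cDC1s and macrophages became 0 with median scaling, without the filter, with array weights or at the stricter threshold, and 1 with cyclic loess or a log2 change of at least 1. Between macrophages and monocytes (12) the counts were 5 with median scaling, 0 at both thresholds on size and 7 from *Mbd2*-/- arrays. In cDC1s against monocytes (17) they were 3 at both size thresholds and 11 within runs of WT arrays, an alternative chosen after seeing the data, and against macrophages (17) 3 at both and 10 from WT arrays. Without single arrays the counts ranged from 0 to 1, 2 to 4 and 0 to 6 between genotypes, 11 to 14, 15 to 18 and 16 to 19 between cell types (in the same order), and 0 to 0, 0 to 6 and 0 to 6 for the interactions of macrophages with monocytes and of cDC1s with monocytes and with macrophages. The cDC1 counts rose to 6, the interaction with monocytes included, without WT array 26. The shares of all genes passing in the same settings are not set beside these counts. The counts thus do not say whether members changed more than other genes, and the cause of these changes was not tested.

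Signs turned with median scaling for *Ddit3* (-0.311 in monocytes, -0.202 in cDC1s), *Hspa5* (-0.207 and -0.22) and *Ppib* (-0.0172, cDC1s against monocytes). With the run as a fixed block *Ddit3* in monocytes turned too, to -0.0147 with all arrays together and -0.0211 with each cell type normalised and fitted alone. Without single arrays they turned for *Hspa5* in monocytes (-0.03 to 0.288) and cDC1s (-0.186 to 0.746), *Ddit3* in monocytes (-0.0878 to 0.134) and *Xbp1* in macrophages (-0.0901 to 0.0156). With the run as a fixed block and all arrays together, an alternative chosen after seeing the data, 1 member passed in monocytes, *Sec11c* (-0.392, adjusted p = 0.0417) in place of *Creld2* (0.393, adjusted p = 0.0662), and in macrophages *Creld2*, *Tram1* and *Sdf2l1* (1.13, adjusted p = 0.0478) still passed. With each cell type normalised and fitted alone as well, *Chac1* passed in monocytes (-0.816, adjusted p = 0.0307). *Sdf2l1* then did not pass in macrophages with the block (1.15, adjusted p = 0.164) or without it (1.11, adjusted p = 0.158). The run or the array pairs as a random block (correlations 0.0183 and 0.0558), an offset of 50, robust controls and no background correction changed no call of a member named by value. Of all single-gene values under alternatives, 1023 kept direction and call, 112 lost the call, 1 gained it and 16 turned. No array number is shared between groups, and pairing monocyte with macrophage arrays numbered 10 apart is the random block above, with 13 members between macrophages and monocytes in place of 12. With 2 WT cDC1 arrays, leaving 1 out assumes the other varies like the other groups. Probes near the detection limit, *Armet* and *Trib3* among them, have compressed differences.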
